A study of Mus musculus with 22 samples.

Results

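The comparison set interscapular brown adipose tissue (iBAT) of CPEB2-KO mice transduced with an adeno-associated virus (AAV) encoding PRDM16 against iBAT of CPEB2-KO mice transduced with AAV-GFP. It took 6 of the 22 RNA-seq libraries of the series, 3 of KO + AAV-PRDM16 (mice 59, 65 and 76) and 3 of KO + AAV-GFP (mice 57, 64 and 69), as the sample labels give them, and covered every gene. The question of the AAV experiment was whether ectopic expression of PRDM16 alters gene expression and weight gain when CPEB2 is missing. All 6 mice were male, on a C57BL/6 background, homozygous for a global deletion of CPEB2 in every tissue, and, per the labels, 25 weeks old at collection, 9 weeks after the virus had been injected into the iBAT at 16 weeks of age. The corresponding CPEB2-WT mice, 3 with AAV-PRDM16 (mice 63, 64 and 80) and 3 with AAV-GFP (mice 56, 65 and 89), entered the same fit, so that they share in its estimate of the spread, and served to ask where the response in the KO differed. The virus carried the PRDM16 coding region with a flag tag in an AAV2/8 vector, and the control virus delivered GFP, so effects of PRDM16 and of GFP delivery cannot be told apart without uninjected mice of the same cohort. Further AAV libraries named in the study's supplement were not analysed here.

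Brown adipocytes burn fuel to make heat, chiefly through the uncoupling protein UCP1 in the inner mitochondrial membrane. PRDM16 is a zinc-finger transcriptional regulator that, with partners such as PPARγ, C/EBPβ, EHMT1 and CtBP, favours brown over muscle and white fat gene programmes, and it is known to hold down type I interferon target genes in adipocytes by competing with IRF1. CPEB2 binds cytoplasmic polyadenylation elements in 3′ untranslated regions and controls the translation of its target mRNAs. Fat depots also hold vessels, nerves, macrophages and lymphocytes, and in bulk tissue fewer cells of a type and less RNA per cell cannot be told apart.

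The 6 KO libraries held 61636889 to 119502062 counts, of which 29.6% to 36.9% lay on mitochondrially encoded genes. Levels are given as CPM, read counts scaled to the library total after TMM normalization, in the order mice 57, 64 and 69 for AAV-GFP and 59, 65 and 76 for AAV-PRDM16, and 3 counts, the most that a count of 0 allows, correspond to 0.0208 to 0.0501 CPM. CPM does not account for gene length, so levels were compared between libraries and not between genes. Adipocyte and brown fat markers were present in every library, with 1947, 1576 and 2193 CPM of Ucp1 in the AAV-GFP group. On a principal component analysis of the 6 libraries, mouse 69 of the AAV-GFP group stood apart from the rest on the first component (45.7% of the variance, score 29.5 against −15.2 to 6.0), and the medians and counts of the immune lists are given with and without it. Genes were compared by edgeR's two-sided quasi-likelihood test, which shared 1 estimate of the spread over all 12 AAV libraries; counts of genes at p under 0.05 use the unadjusted p, and an adjusted p is edgeR's over all genes tested unless DESeq2 is named. Changes are log2 fold changes of AAV-PRDM16 over AAV-GFP with their standard error (SE).

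Prdm16 itself was higher in every mouse given AAV-PRDM16. The Prdm16 gene (chr4:154316125-154636873, GRCm38) was read at 31.7, 34.5 and 31.7 CPM with AAV-GFP and at 69.2, 128 and 73.6 CPM with AAV-PRDM16, a mean of 32.7 ± 1.59 against 90.2 ± 32.6 (SD, n = 3 each). The log2 fold change was 1.47 ± 0.34 SE, or 2.76-fold, with adjusted p = 0.307 by edgeR and adjusted p = 0.00190 by DESeq2. Mouse 65 had the highest Prdm16 level of the 3, and the groups did not overlap. Reads from the virus and from the endogenous gene were counted together. Cpeb2 (chr5:43233170-43289724) was low in both groups, at 5.42, 5.51 and 5.55 CPM with AAV-GFP and 5.21, 4.33 and 4.91 CPM with AAV-PRDM16, against means of 12.4 and 12.2 CPM in the WT groups. It missed p under 0.05 between the viruses (log2 fold change −0.19 ± 0.14 SE, adjusted p = 1.0), and 3 of the 4 CPEB family genes had a slightly lower mean with AAV-PRDM16, with 0 at p under 0.05.

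**Figure D1:**
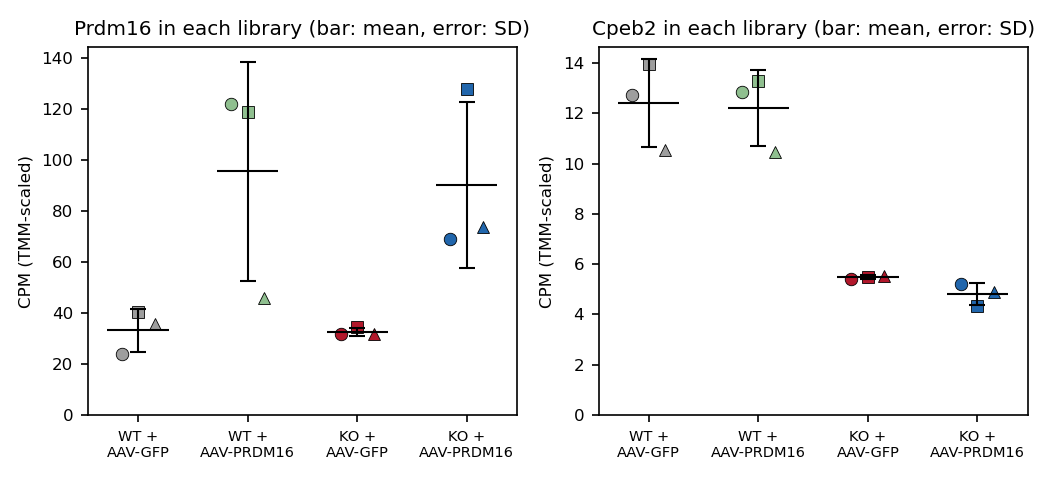
Prdm16 and Cpeb2 in CPM (vertical axes) in each of the 12 AAV libraries, by group, with points for single mice and bars for the mean and SD (n = 3). Prdm16 lay between 69.2 and 128 CPM in the 3 KO + AAV-PRDM16 mice, all above the KO + AAV-GFP mice, and Cpeb2 lay below 6 CPM in all 6 KO mice.

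Across all genes more were lower than higher with AAV-PRDM16, and none passed correction in the planned test. Of 18899 genes tested, 0 (0%) were called at an adjusted p of 0.05 by edgeR (smallest adjusted p 0.307). At an unadjusted p under 0.05, 247 genes were higher (1.31%) and 964 lower (5.1%) with AAV-PRDM16. The 3 libraries of one group all lay above the 3 of the other for 639 genes higher (3.38%) and 1144 genes lower (6.05%). At the thresholds of the study, a change of 2-fold or more with an FDR up to 0.5, 22 genes were higher (0.116%) and 384 lower (2.03%). Other tools called more or as few: DESeq2 called 19 genes higher (0.103% of the 18511 with an adjusted p) and 247 lower (1.33%), the newer quasi-likelihood method of edgeR called 9 lower, all immunoglobulin genes, and limma-voom with quality weights per library called 0. Without mouse 69, 652 of 19308 genes were lower at p under 0.05 (3.38%) and 406 were higher, so the excess of lower genes was smaller. The median log2 fold change of all genes tested was −0.01. TMM scaling itself holds this median near no change, so it cannot show whether there was a general shift.

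Genes of immune cells and of interferon responses were lower together. Of the 964 lower genes, 265 (27.5%) belonged to 10 gene lists of immune cells and interferon responses or were immunoglobulin or T cell receptor genes. The 10 lists held 226 genes tested, of which 211 had a lower mean with AAV-PRDM16, 129 were lower at p under 0.05 (57.1%, against 5.1% of all genes), 0 were higher, and 108 had groups that did not overlap (47.8%, against 6.05%). Their median log2 fold change was −1.2, and DESeq2 called 49 of them lower. In the AAV-GFP group mouse 69 was the highest library for 214 of the 226 genes. Without it the median was −0.51, 185 genes still had a lower mean and 54 were lower at p under 0.05, against 3.38% of all genes in that fit. The other 27 lists, 605 genes of fat, mitochondria, muscle, vessels, nerve and stress, had a median of 0.01. At p under 0.05, 27 of the 605 genes were higher and 10 lower, beside 1.31% higher and 5.1% lower of all genes. Of these 27 higher genes, 18 were respiratory chain subunits.

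**Figure D2:**
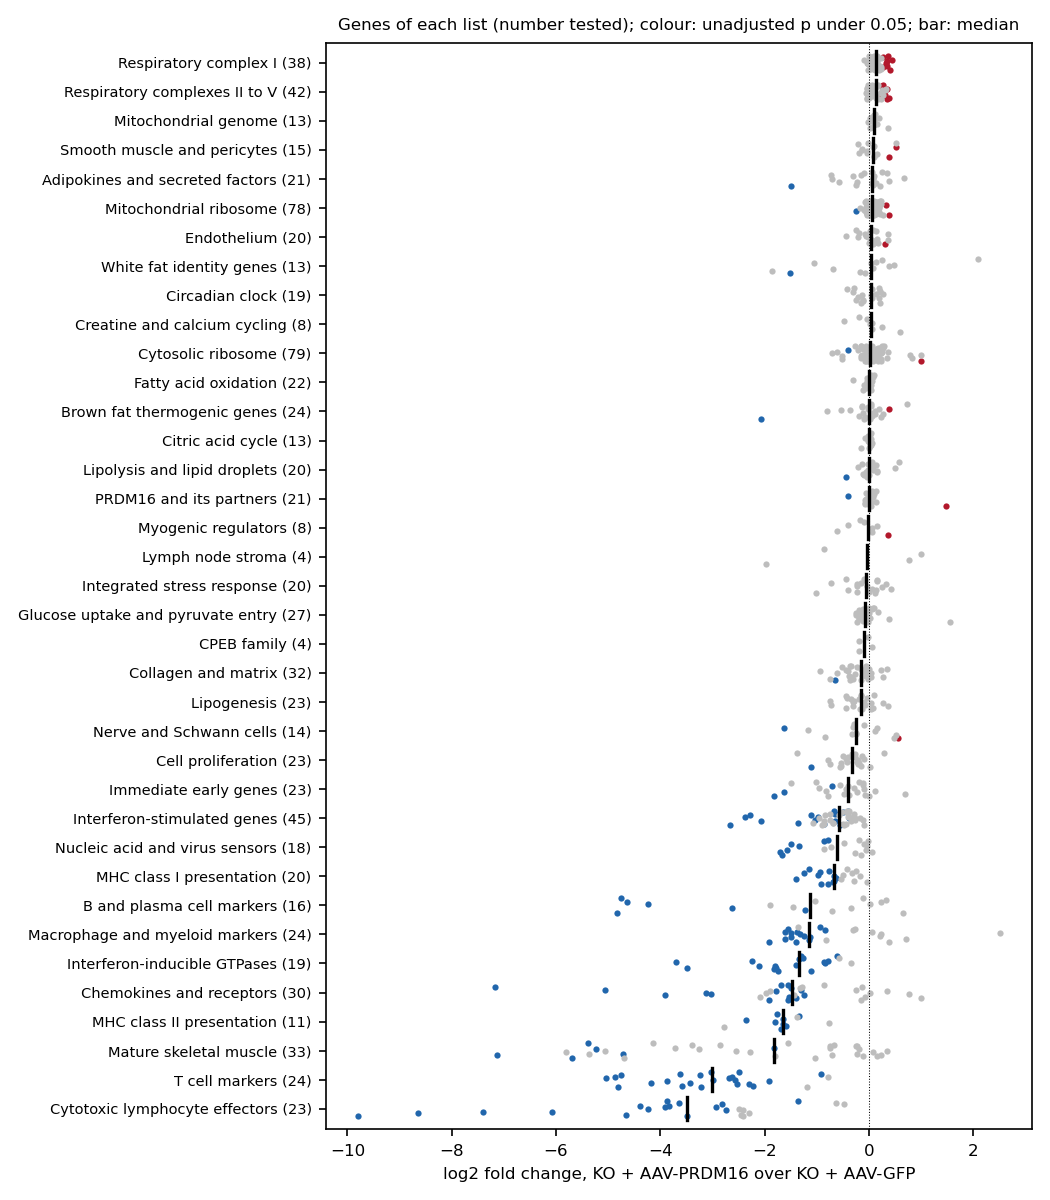
Log2 fold change of KO + AAV-PRDM16 over KO + AAV-GFP for every gene tested in each of the 37 gene lists (one row per list, one point per gene, bar for the median). Blue points are lower and red points higher at p under 0.05 in the edgeR test; the 10 immune lists lie to the left of 0, with medians from −3.50 to −0.58, and the respiratory chain lists just to the right.

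The summed level of T cell genes was lower in every AAV-PRDM16 mouse than in any AAV-GFP mouse. The list of 24 T cell markers had a median log2 fold change of −3.0, all 24 had a lower mean, 22 were lower at p under 0.05, 17 had separate groups and 11 were called by DESeq2. Summed over the list, the level was 22.8, 19.1 and 74.9 CPM with AAV-GFP and 7.33, 7.06 and 9.04 CPM with AAV-PRDM16, a ratio of 4.98, and of 2.68 without mouse 69. Mouse 69 was highest, and the 3 AAV-PRDM16 mice lay close together. Cd3e, a signalling chain of the T cell receptor complex, was at 1.47, 1.61 and 3.93 CPM with AAV-GFP and 0.119, 0.342 and 0.184 CPM with AAV-PRDM16 (log2 fold change −3.43 ± 0.76 SE, adjusted p = 0.307). Cd8a, the coreceptor chain of cytotoxic T cells, was at 1.64, 1.79 and 6.58 CPM and at 0.0496, 0.185 and 0.117 CPM (−4.81 ± 0.96 SE, adjusted p = 0.307, DESeq2 adjusted p = 6.86e-06). The other chain, Cd8b1, and the helper coreceptor Cd4 had log2 fold changes of −5.05 ± 1.30 and −3.22 ± 1.10 SE, and in none of these 4 genes did the groups overlap. Lck, the kinase that starts receptor signalling, went from 1.49, 0.969 and 4.17 CPM to 0.287, 0.194 and 0.368 CPM, and the receptor constant segment Trbc2 from 0.968, 0.628 and 2.80 to 0.0595, 0.0740 and 0 CPM. Thy1, which nerve and stromal cells also make, overlapped between the groups and missed p under 0.05 (−0.78 ± 0.53 SE, adjusted p = 1.0). Without mouse 69 the list median was −2.11 and 11 of the 24 were lower at p under 0.05. When single AAV-PRDM16 mice were left out, 15 to 20 were.

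Effector genes of killer lymphocytes were lower as well. Of 23 tested, all 23 had a lower mean, 16 were lower at p under 0.05 and 15 had separate groups, with a median of −3.50 (−2.17 and 9 genes without mouse 69). The list summed to 11.9, 10.7 and 35.3 CPM with AAV-GFP and 4.34, 4.14 and 4.23 CPM with AAV-PRDM16. Pdcd1, which encodes the inhibitory receptor PD-1, had 0.328, 0.476 and 2.33 CPM with AAV-GFP and no read in the 3 AAV-PRDM16 libraries, so it was at least 93.5-fold lower (3 counts over the group as the floor), and at least 36.0-fold without mouse 69. Gzmk, a granzyme, had 0.328, 0.341 and 0.757 CPM and likewise no read with AAV-PRDM16, at least 42.6-fold lower (30.0-fold without mouse 69). Ccl5, a chemokine that activated T and NK cells release, went from 0.611, 0.502 and 4.44 CPM to 0.0793, 0.0740 and 0.234 CPM (−3.92 ± 1.04 SE, adjusted p = 0.315). Nkg7, a granule protein, was at 1.42, 0.547 and 2.94 CPM and at 0.109, 0 and 0.167 CPM. Tigit, another inhibitory receptor, had a log2 fold change of −6.08 ± 1.51 SE (adjusted p = 0.310, DESeq2 adjusted p = 0.00275). The T-box factor Tbx21 (−0.47 ± 0.30 SE) and the inhibitory receptor Lag3 (−0.63 ± 0.33 SE) overlapped between the groups and missed p under 0.05. Klrk1, an activating receptor of NK and T cells, had a log2 fold change of −2.81 ± 0.99 SE (adjusted p = 0.507). Tox, a factor of chronically stimulated T cells, was at 0.536, 0.574 and 2.53 CPM and 0.0793, 0.0648 and 0.117 CPM (−3.83 ± 0.94 SE, adjusted p = 0.310).

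Antibody genes made up most of the lower genes with the smallest p-values. Of the 12 lower genes with the smallest p among those at 1 CPM or more, 9 were immunoglobulin variable genes. Of 218 annotated variable genes, 141 passed the filter on low counts, all 141 had a lower mean and 118 were lower at p under 0.05. The AAV-PRDM16 libraries held few such reads. Genes could therefore pass the filter through the AAV-GFP libraries, which partly fixed these counts beforehand. Summed over all 218, tested or not, the level was 52.5, 168 and 346 CPM with AAV-GFP and 8.98, 8.03 and 7.38 CPM with AAV-PRDM16, a ratio of 23.2, and of 13.5 without mouse 69. The 3 AAV-PRDM16 libraries were close together and the 3 AAV-GFP libraries spread over several fold, with the lowest, mouse 57, still above all of them. Igkv1-110, a kappa light chain variable gene on chromosome 6, stood at 1.45, 3.91 and 6.76 CPM with AAV-GFP and 0.129, 0.111 and 0.167 CPM with AAV-PRDM16 (−4.91 ± 0.82 SE, adjusted p = 0.307, DESeq2 adjusted p = 2.74e-08). Ighv1-81, a heavy chain variable gene on chromosome 12, stood at 1.15, 4.52 and 7.93 CPM and 0.0793, 0.176 and 0.15 CPM. Many variable genes have close paralogs, so the reads of each single gene are uncertain, and their sum is less affected. Igkv4-91 had no read in any AAV-PRDM16 library (at least 183-fold lower), and neither had Ighv10-3 (at least 79.5-fold lower).

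Constant segments and genes of antibody secretion were lower as well. Jchain, the chain that joins IgA and IgM into polymers, was at 21.6, 68.4 and 159.8 CPM with AAV-GFP and 3.38, 2.52 and 2.94 CPM with AAV-PRDM16 (log2 fold change −4.82 ± 0.96 SE, adjusted p = 0.307, DESeq2 adjusted p = 0.000209). Igkc, the kappa constant segment, was at 41.5, 104 and 251 CPM and 5.64, 4.01 and 6.35 CPM, and Ighm, the constant segment of IgM, at 9.39, 11.5 and 26.4 CPM and 5.41, 8.36 and 6.53 CPM. Mzb1, a chaperone of antibody-secreting cells, had a log2 fold change of −4.76 ± 1.69 SE (adjusted p = 0.510). Cd22, a lectin on the surface of B cells, was at 0.387, 0.799 and 2.43 CPM and 0.307, 0.0925 and 0.184 CPM (−2.63 ± 0.67 SE, adjusted p = 0.310). Ebf1, a factor that adipocytes share with B cells, overlapped at 103, 79.5 and 96.0 CPM and 122, 91.8 and 134 CPM. The list of 16 B and plasma cell markers thus had a median of −1.13, with 12 lower means and 6 at p under 0.05. Without mouse 69 its median was −0.33 with 3 at p under 0.05.

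**Figure D3:**
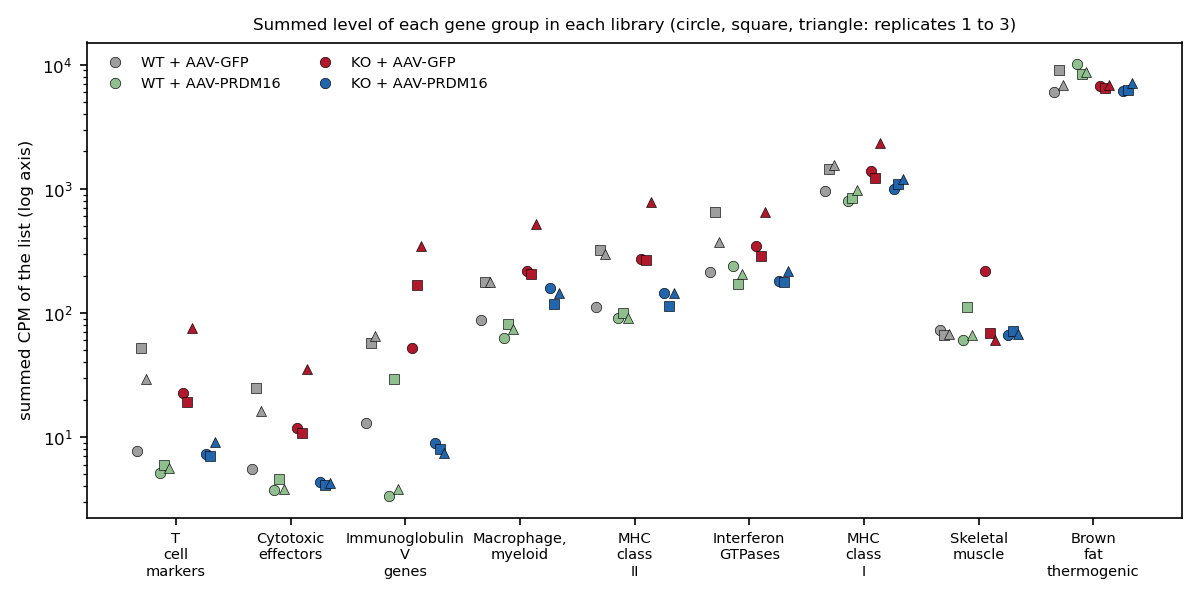
Summed CPM (log axis) of immune and other gene groups in each of the 12 AAV libraries, coloured by group, with circle, square and triangle for replicates 1 to 3. In the KO, the T cell sum was 19.1 to 74.9 CPM with AAV-GFP and 7.06 to 9.04 CPM with AAV-PRDM16, while the thermogenic sum lay between 6159 and 7177 CPM in all 6.

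Macrophage genes were lower in part. Of 24 tested, 18 had a lower mean, 14 were lower at p under 0.05 and 11 had separate groups, with a median of −1.15. Their sum was 218, 204.4 and 525 CPM with AAV-GFP and 157, 118 and 143 CPM with AAV-PRDM16. Without mouse 69 the median was −0.40 and 7 were lower at p under 0.05. Adgre1, the macrophage surface marker F4/80, was at 7.02, 6.68 and 18.5 CPM and 4.80, 2.75 and 3.86 CPM (−1.5 ± 0.39 SE, adjusted p = 0.310), and Lyz2, myeloid lysozyme, at 87.8, 76.6 and 189.8 CPM and 43.1, 29 and 43.5 CPM (−1.62 ± 0.39 SE). The complement genes C1qa, C1qb and C1qc, made by tissue macrophages, had log2 fold changes of −1.31, −1.5 and −1.16. Csf1r, the receptor macrophages need to survive, stood at 13.8, 15 and 33.5 CPM and 12.7, 11.6 and 10.3 CPM (−0.85 ± 0.30 SE, adjusted p = 0.510). Mrc1, the mannose receptor of resident macrophages, was at 14.3, 14.3 and 28.3 CPM and 10.7, 8.84 and 10.4 CPM (−0.93 ± 0.24 SE, adjusted p = 0.310). Wdfy4, a gene of dendritic cells that present antigen from dead cells to CD8 T cells, was among the 12 lower genes with the smallest p, at 3.98, 3.29 and 7.74 CPM and 1.64, 1.30 and 1.15 CPM (−1.87 ± 0.40 SE, adjusted p = 0.307).

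Antigen presentation was lower in both classes. The 11 genes of MHC class II presentation, which shows peptides to helper T cells, all had a lower mean, with a median of −1.65, 8 at p under 0.05, 9 separate and 6 called by DESeq2. Their sum was 272, 268 and 779 CPM with AAV-GFP and 145, 114 and 144 CPM with AAV-PRDM16, so that no library overlapped. Cd74, the invariant chain, was at 101, 108 and 301 CPM and 59.3, 46.7 and 57.6 CPM (−1.64 ± 0.42 SE, adjusted p = 0.310), and H2-Aa, a class II alpha chain, at 52.2, 47.1 and 129 CPM and 25.6, 20.7 and 26.8 CPM (−1.65 ± 0.41 SE, adjusted p = 0.310). Of the 20 class I genes, made by nearly all cells, all 20 had a lower mean and 12 were lower at p under 0.05, with a smaller median of −0.67. H2-K1, a class I heavy chain, was at 236, 214 and 447 CPM and 159, 202 and 191.2 CPM (−0.70 ± 0.27 SE, adjusted p = 0.592). Tap1, which carries peptides into the endoplasmic reticulum, was at 13.2, 14.2 and 25.7 CPM and 8.40, 11.2 and 8.34 CPM (−0.93 ± 0.25 SE), and Psmb8, a subunit of the immunoproteasome, at 13.3, 10.5 and 29.5 CPM and 5.29, 7.48 and 7.37 CPM (−1.41 ± 0.42 SE). B2m, the shared light chain of class I, overlapped at 353, 278 and 537 CPM and 235, 226 and 366 CPM and missed p under 0.05 (adjusted p = 0.961). Without mouse 69, class II had a median of −0.99 with 6 genes at p under 0.05, and class I of −0.29 with 4. H2 genes are close paralogs, and reads shared between them are uncertain.

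Interferon-inducible GTPases, the guanylate binding proteins and immunity-related GTPases that attack vacuoles of intracellular microbes, were lower together. All 19 had a lower mean, 17 were lower at p under 0.05 and 16 had separate groups, with a median of −1.35. They summed to 344, 287 and 653 CPM with AAV-GFP and 180, 177 and 217 CPM with AAV-PRDM16. Without mouse 69 the median was −0.73 and 6 of the 19 were lower at p under 0.05. Gbp2 was at 52.8, 30.2 and 75.6 CPM and 18.0, 20.3 and 26.3 CPM (−1.30 ± 0.39 SE, adjusted p = 0.388), and Gbp6 at 44.9, 33.1 and 75.2 CPM and 23.6, 21.7 and 25.8 CPM (−1.11 ± 0.39 SE, adjusted p = 0.508). Iigp1 was at 31.0, 22.9 and 67.6 CPM and 8.49, 9.18 and 10.7 CPM (−2.10 ± 0.62 SE), and Tgtp1 at 9.82, 9.70 and 31.5 CPM and 4.43, 4.31 and 6.62 CPM (−1.74 ± 0.46 SE). The groups did not overlap for Gbp2, Gbp6, Iigp1 and Tgtp1. Irgm2, Gbp7 and Gvin1 had log2 fold changes of −1.40, −0.86 and −0.61. Many of these genes have close paralogs, and the split of reads between them is uncertain.

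The promoters of these GTPases share a sequence element, and the search for it used no value of the comparison. The list was chosen as interferon-inducible genes, so an interferon element in them says nothing about the virus. The interferon-stimulated response element (ISRE), a promoter element of many interferon-induced genes, was searched on both strands as the letters GAAANNGAAA in RefSeq windows from 250 bases before to 50 bases after the gene start (GRCm38.p6). It was in the window of 10 of the 11 GTPases that had one (90.9%), against 478 of all 12083 tested genes with a window (3.96%). The share was 16 of 33 for the interferon-stimulated genes below (48.5%), 5 of 17 for MHC class I (29.4%), 1 of 8 for MHC class II (12.5%) and 0 of 12 for T cell markers. A site from each of 4 of these GTPases, 30 bases long with the ISRE letters in capitals, read 5′ to 3′ on the strand that matches the letters.
Gbp2, chr3:142620594-142620623: ttaagacagtGAAAGTGAAActaaaagagt
Gbp7, chr3:142530273-142530302: atggagaactGAAACTGAAActgcacacac
Irgm2, chr11:58214903-58214932: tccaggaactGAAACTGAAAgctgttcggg
Tgtp1, chr11:48992304-48992333: tccaggaatcGAAACTGAAAcctacctgac
They lay 59, 53, 64 and 77 bases before the gene start in that order. A match of letters is not a measurement of binding, and no binding was measured here.

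**Figure D4:**
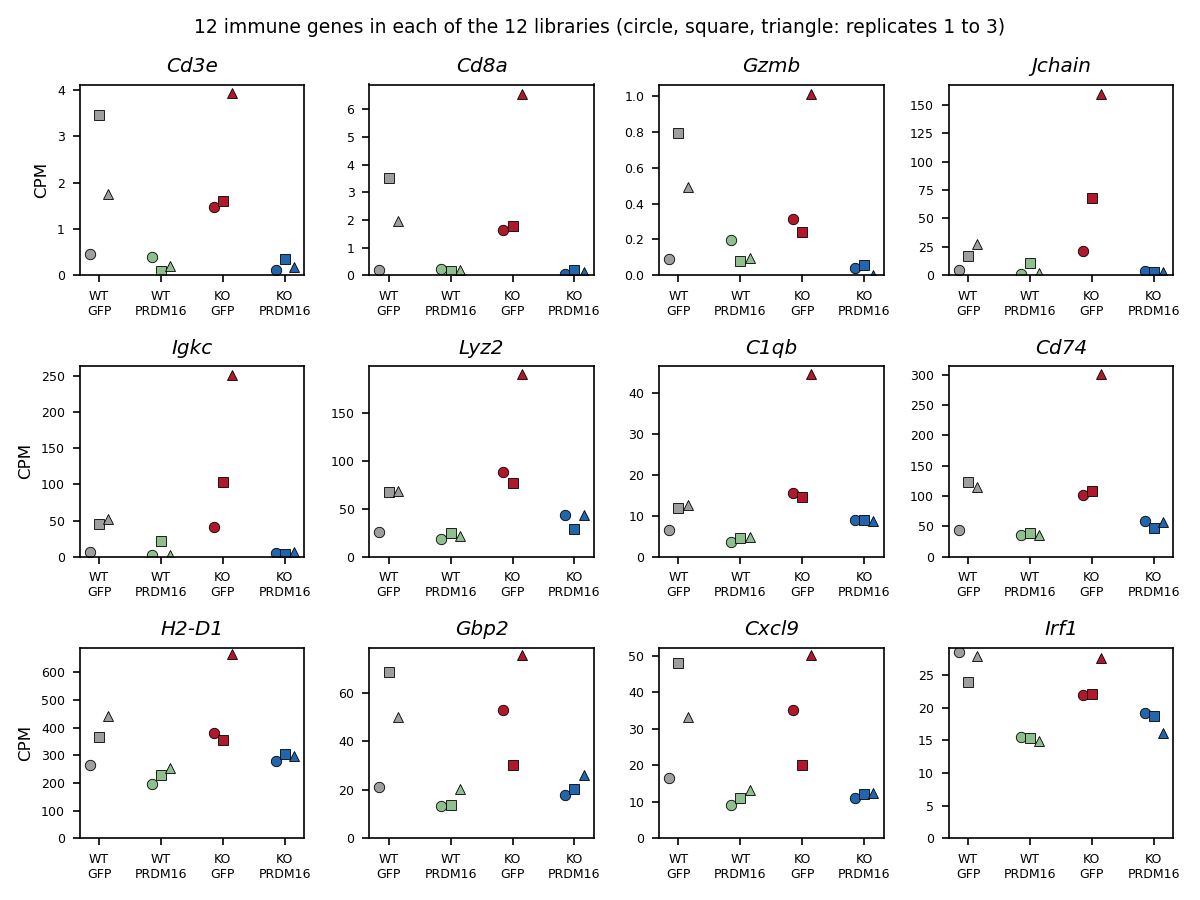
CPM (vertical axes from 0, each gene on its own scale) of 12 immune genes in each of the 12 AAV libraries, by group, with circle, square and triangle for replicates 1 to 3. In each of the 12 genes the 3 KO + AAV-PRDM16 mice lie below the 3 KO + AAV-GFP mice, of which mouse 69 (triangle) is the highest.

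The wider set of interferon-stimulated genes was lower by smaller steps. All 45 tested had a lower mean, with a median of −0.58, 16 at p under 0.05, 8 separate and 4 called by DESeq2. Without mouse 69 the median was −0.18 and 4 were lower at p under 0.05. Zbp1, a sensor of Z-form nucleic acid, was at 2.31, 0.924 and 5.97 CPM and 0.496, 0.620 and 0.651 CPM (−2.39 ± 0.74 SE, adjusted p = 0.397), and Epsti1 at 2.61, 2.05 and 7.40 CPM and 0.942, 0.564 and 1.40 CPM (−2.07 ± 0.57 SE, adjusted p = 0.328). For both genes the groups did not overlap. Irf7, the factor that amplifies type I interferon, stood at 7.02, 3.21 and 18.1 CPM and 3.79, 2.99 and 4.23 CPM (−1.37 ± 0.48 SE, adjusted p = 0.507), and Mx1, an antiviral GTPase, at 0.372, 0.538 and 1.62 CPM and 0.149, 0.102 and 0.15 CPM (−2.67 ± 0.67 SE, adjusted p = 0.310). Eif2ak2, the kinase PKR, had a log2 fold change of −0.18 ± 0.12 SE (adjusted p = 1.0). Irf1, a factor induced by interferon gamma and the one PRDM16 is known to compete with, was at 22, 22.2 and 27.7 CPM and 19.2, 18.8 and 16.1 CPM (−0.41 ± 0.12 SE, adjusted p = 0.359), with no overlap.

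Among 18 sensors of nucleic acids and viruses 17 had a lower mean and 7 were lower at p under 0.05 (median −0.61, and −0.21 with 1 gene without mouse 69). Irf8, a factor of myeloid and B cells, was at 3.62, 3.47 and 9.49 CPM and 1.62, 1.2 and 2.42 CPM (−1.67 ± 0.48 SE, adjusted p = 0.359), and Tlr9, the endosomal receptor for DNA, at 1.12, 0.673 and 2.21 CPM and 0.644, 0.407 and 0.368 CPM (−1.49 ± 0.48 SE). Of 30 chemokines and receptors, 26 had a lower mean and 15 were lower at p under 0.05 (median −1.47, and −0.62 with 5 genes without mouse 69). Cxcl9, which interferon gamma induces and which attracts T cells, was at 35.2, 20.1 and 50.2 CPM and 11.2, 12.2 and 12.5 CPM (−1.56 ± 0.36 SE, adjusted p = 0.307). Its receptor Cxcr3 was at 0.566, 0.673 and 1.57 CPM and 0, 0.0370 and 0.0501 CPM (−5.06 ± 1.23 SE, adjusted p = 0.310), and the monocyte receptor Ccr2 at 6.57, 6.17 and 16.9 CPM and 3.47, 3.15 and 3.51 CPM (−1.55 ± 0.45 SE). Cxcl12, a chemokine of stromal cells, stood at 41.7, 55.8 and 64.5 CPM and 52.2, 43.8 and 49.7 CPM (−0.15 ± 0.18 SE, adjusted p = 1.0).

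Genes of the lymph node stroma, fixed as a sign of lymph node in the dissected tissue, were few and low. The 11 listed genes summed to 1.62, 0.951 and 2.81 CPM with AAV-GFP and 1.17, 0.555 and 1.54 CPM with AAV-PRDM16. Of these 11, 4 passed the filter and were tested, with 0 at p under 0.05. The part of lymphoid tissue in the immune difference was not tested. Endothelial, smooth muscle and pericyte, and matrix genes had medians of 0.05, 0.07 and −0.15, with 1 gene higher (Vegfb), 2 higher (Myh11 and Tagln) and 1 lower (Tgfbi) at p under 0.05, in that order.

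Subunits of the respiratory chain lay slightly above the control. Of 38 subunits of complex I and 42 of complexes II to V, 65 of 80 had a higher mean with AAV-PRDM16, 18 were higher at p under 0.05 (22.5%, against 1.31% of all genes), 0 were lower, and 17 had separate groups (against 3.38%). The size of the difference was small, with medians of 0.13 in each list. The medians ran from 0.07 to 0.18 and from 0.04 to 0.17 when single mice were left out. The genes higher at p under 0.05 then ran from 4 to 12 in each list, beside 8 and 10 with all mice. In a fit of the 2 KO groups alone, 5 of complex I and 4 of complexes II to V were higher at p under 0.05. Of the 12 higher genes with the smallest p, besides Prdm16, Ndufb11, Ndufa1 and Atp5k belong to the chain, and Mrps24, Mrps36, Tomm7 and Fdx1 encode other mitochondrial proteins. Ndufb11, an accessory subunit of complex I, was at 73.3, 71.3 and 80.9 CPM with AAV-GFP and 92.0, 103 and 102 CPM with AAV-PRDM16 (0.40 ± 0.10 SE, adjusted p = 0.310), and Ndufa1 at 35.3, 36.3 and 32.9 CPM and 49.4, 52.6 and 40.6 CPM (0.45 ± 0.12 SE, adjusted p = 0.313). Atp5k, a subunit of ATP synthase, was at 30.3, 32.8 and 31.7 CPM and 41.3, 40.4 and 39.1 CPM (0.35 ± 0.09 SE, adjusted p = 0.315). In each of them the groups did not overlap. The others of the 12, Nop10, Polr2j, Tmem258 and U2af1l4, encode parts of small nucleolar particles, RNA polymerase II, the oligosaccharyl transferase and the splicing factor U2AF, and Nop10 had the smallest p (14.0, 12.0 and 13.4 CPM and 17.8, 17.3 and 17.9 CPM, 0.43 ± 0.09 SE, adjusted p = 0.307).

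Transcript length moved with this result. The median length of the longest transcript was 951.5 bases for the 12 higher genes and 1030 bases for the 80 subunits, against 2874 bases for all genes tested. When genes were split into 5 equal classes of length, the shortest class reached 1346 bases. In it 47 subunits had a median of 0.17 with 14 at p under 0.05 higher (29.8%), while 3726 other genes of that class had a median of 0.05 with 97 higher (2.60%). Those of them at 10 CPM or more, 519 genes, had a median of 0.06 with 29 higher (5.59%). The 33 longer subunits had a median of 0.02 with 4 higher (12.1%), Ndufa12, Atp5d, Cox5a and Atp5e, while 15052 other longer genes had a median of −0.01 with 131 higher (0.870%). Among the longer ones, Ndufs1, the largest subunit of complex I, stood at 725, 607 and 526 CPM and 576, 639 and 667 CPM (0.02 ± 0.13 SE, adjusted p = 1.0), and Atp5b, the catalytic subunit of ATP synthase, at 4557, 4770.3 and 4322 CPM and 4251, 4765 and 5275 CPM (0.07 ± 0.11 SE). After a trend of length and GC content was removed from each library, an alternative chosen after seeing the data, the median of the 80 was 0.08, with 59 higher means and 15 higher at p under 0.05. The 13 protein genes of the mitochondrial genome had a median of 0.09 with 12 higher means, but 0 at p under 0.05, and 78 genes of the mitochondrial ribosome a median of 0.05 with 2 higher (Mrps24 and Mrps36) and 1 lower (Mrps17). RNA integrity was not among the deposited values, and its part in the result was not tested.

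**Figure D5:**
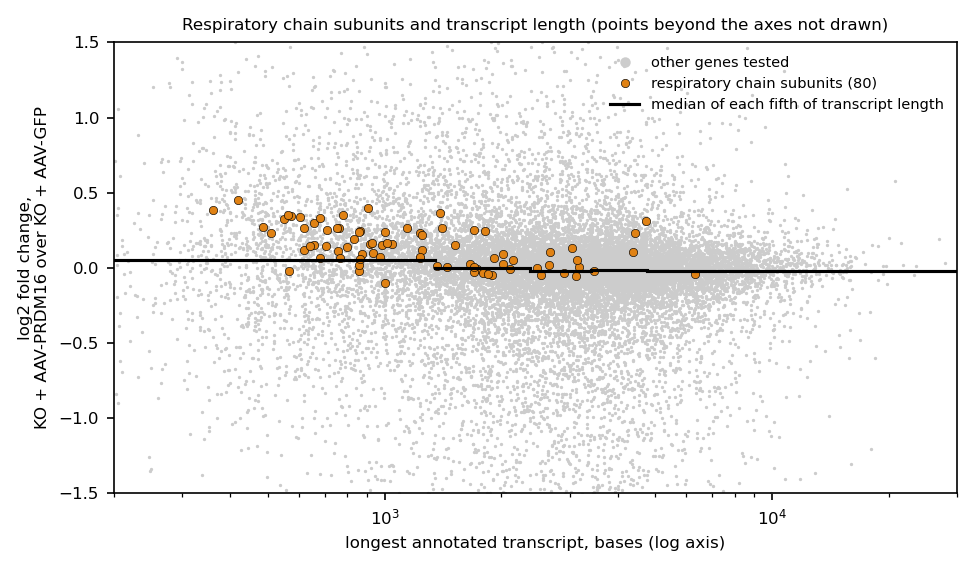
Log2 fold change of KO + AAV-PRDM16 over KO + AAV-GFP (vertical axis) against the longest annotated transcript in bases (log axis), with the 80 respiratory chain subunits in orange, other genes in grey and black lines for the median of each of 5 equal length classes. The subunits at the short end lie above the line of their class (median 0.17), and the longer ones near 0 (median 0.02).

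The summed level of thermogenic genes of brown fat overlapped between the viruses. The 24 had a median of 0.00 with 12 higher and 12 lower means, and their sum was 6756, 6487 and 6830.3 CPM with AAV-GFP and 6159, 6266 and 7177 CPM with AAV-PRDM16. Ucp1 was at 1947, 1576 and 2193 CPM and 1574, 1373 and 2477 CPM, with a log2 fold change of −0.08 ± 0.31 SE (adjusted p = 1.0), which leaves room for a change of either sign. Cidea, a lipid droplet protein of brown fat, was at 1191, 1146 and 1078 CPM and 1123, 1282 and 1109 CPM (0.04 ± 0.12 SE), and Cpt1b, which brings fatty acids into mitochondria, at 715, 741 and 823 CPM and 756, 768 and 828 CPM (0.05 ± 0.10 SE). Of the list, Cox8b, a brown fat and muscle isoform of cytochrome c oxidase, was higher at p under 0.05 (65.6, 71.6 and 97.0 CPM and 94.0, 94.2 and 118 CPM, 0.39 ± 0.16 SE, adjusted p = 0.692). The 1 lower gene of the list was Epsti1, given above among the interferon-stimulated genes. Fatty acid oxidation, the citric acid cycle and lipolysis had medians of 0.01, 0.00 and 0.00, with 0, 0 and 1 gene (Adrb1, lower) at p under 0.05.

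Among 13 genes of white fat identity the median was 0.04, and Hoxc8 was the 1 gene lower at p under 0.05. Hoxc8, a homeobox gene expressed in white more than in interscapular brown depots, was at 6.09, 5.78 and 4.99 CPM with AAV-GFP and 1.10, 1.64 and 3.22 CPM with AAV-PRDM16 (−1.51 ± 0.35 SE, adjusted p = 0.307, DESeq2 adjusted p = 0.00524). All 3 AAV-PRDM16 mice were below all 3 AAV-GFP mice. In the WT the Hoxc8 log2 fold change was 0.37 (edgeR adjusted p = 0.884), and the interaction had an adjusted p = 1.0. Of the 13 genes, 1 was at an unadjusted p under 0.05 in the interaction, with the more negative log2 fold change in the KO. Lep, the white fat hormone leptin, was at 78.1, 78.4 and 128 CPM and 82.4, 45.4 and 242 CPM and overlapped (0.38 ± 0.70 SE, adjusted p = 1.0). Among the 21 genes of PRDM16 and its partners, Prdm16 was the 1 higher and Irf1 the 1 lower at p under 0.05.

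Muscle genes rested on mouse 57. The 33 genes of mature skeletal muscle had a median of −1.82 with 29 lower means and 6 lower at p under 0.05, and without mouse 57 a median of 0.15 with 0 lower. Summed over all 45 genes listed, tested or not, the level was 216, 69 and 60.8 CPM with AAV-GFP and 66.6, 71.2 and 67.1 CPM with AAV-PRDM16, so that mouse 57 alone stood out. Acta1, skeletal muscle actin, was at 13.1, 0.0718 and 0.458 CPM and 0.307, 0.176 and 0 CPM, and Ttn, titin, at 12.7, 0.0897 and 0.208 CPM and 0.159, 0.0740 and 0.0668 CPM. The 8 myogenic regulators had a median of −0.02 with 1 higher at p under 0.05 (Tead1) and 0 lower.

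Lipogenic and immediate early genes were spread widely within each group. Fasn, fatty acid synthase, was at 21986, 24453 and 1842 CPM with AAV-GFP and 11488, 24399 and 3271 CPM with AAV-PRDM16 (−0.30 ± 0.76 SE, adjusted p = 1.0), low in mouse 69 and in mouse 76. Acly, which supplies acetyl-CoA for it, was at 3311, 3672 and 268 CPM and 1073, 2679 and 559 CPM. All 23 lipogenic genes missed p under 0.05, with 17 lower means and a median of −0.16. Nr4a1, an orphan nuclear receptor induced within minutes of a stimulus, was at 9.09, 44.5 and 69.6 CPM and 6.77, 7.77 and 20.8 CPM (−1.81 ± 0.77 SE, adjusted p = 0.704). The 23 immediate early genes had a median of −0.41 with 3 lower at p under 0.05 (Nr4a1, Ier3 and Egr2), and 0 lower without mouse 69. The 23 proliferation genes had a median of −0.33 with 1 lower (Cdc20).

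In the WT the same virus gave a response of like direction in the immune genes. The WT contrast shares no library with the KO contrast. It called 0 genes by edgeR (smallest adjusted p 0.286), with 396 higher (2.1%) and 981 lower (5.19%) at p under 0.05, 18 higher and 134 lower by DESeq2, and 1 lower by limma-voom with quality weights. The 226 immune genes had a median of −0.93 in the WT, with 210 lower means and 111 lower at p under 0.05, beside −1.2, 211 and 129 in the KO. T cell markers had medians of −3.04 in the WT and −3.0 in the KO, and killer lymphocyte genes of −3.59 and −3.50. The T cell sum was 7.74, 52.6 and 29.6 CPM in WT + AAV-GFP (mice 56, 65 and 89) and 5.10, 5.91 and 5.68 CPM in WT + AAV-PRDM16, so that mouse 56 came close to the PRDM16 group. Of the 964 genes lower in the KO, 842 had a lower mean in the WT (87.3%, against 52.1% of all genes), and 415 were lower at p under 0.05 in both, 43.0% of the KO list and 42.3% of the WT list. Of the 247 genes higher in the KO, 145 had a higher mean in the WT (58.7%, against 47.9% of all genes) and 13 were higher in both, 5.26% and 3.28% of the lists. Across genes, which are not independent replicates, the log2 fold changes of the 2 contrasts had a Pearson r of 0.402 and a Spearman rho of 0.192.

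In the planned test no gene was called as responding differently in the KO and the WT. The interaction of genotype and virus called 0 genes by edgeR (smallest adjusted p 0.712), with 603 at p under 0.05 (3.19%), 1 by DESeq2 (Gm13340, an unprocessed pseudogene), and 0 by limma-voom with quality weights. Of the 226 immune genes 4 were at p under 0.05 in the interaction, Jchain and Cxcl1 with the more negative log2 fold change in the KO and Irf1 and Cd163 with the more negative one in the WT, and the median of the 226 was −0.15. Jchain had a log2 fold change of −4.82 in the KO and −1.79 in the WT, and Irf1 of −0.41 and −0.82. Without mouse 64 of the WT + AAV-PRDM16 group the Jchain value was −3.30 in the WT, and its interaction missed p under 0.05. The 33 skeletal muscle genes had an interaction median of −4.22, with 13 more negative in the KO at p under 0.05 and 0 called. In the WT their median was 0.88, with 26 higher means and 1 higher and 1 lower at p under 0.05. In the KO their lower values rested on mouse 57, as given above. Prdm16 itself went from 23.9, 40.2 and 35.8 to 122, 119 and 45.9 CPM in the WT (1.52 ± 0.34 SE), with an adjusted p of 1.0 for the interaction. The immunoglobulin variable genes summed to 12.9, 57.6 and 65.3 CPM in WT + AAV-GFP and 3.35, 29.4 and 3.8 CPM in WT + AAV-PRDM16, a ratio of 3.71 beside 23.2 in the KO, with mouse 64 of the WT + AAV-PRDM16 group high. Without that mouse the WT ratio was 12.7, and without mouse 69 the KO ratio was 13.5, so the gap between the ratios rested on these 2 libraries. Ucp1 had a log2 fold change of 0.70 in the WT (p under 0.05, edgeR adjusted p = 0.666) and −0.08 in the KO, with an adjusted p of 1.0 for the interaction, and the respiratory chain had a median of 0.09 with 3 of 80 higher at p under 0.05 in the WT (Atp5k, Ndufv3 and Ndufa12). The p-values measure the spread between 3 mice a group, each a single library, so differences smaller than that spread could not be detected at this size.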

How the data were processed

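Libraries of iBAT RNA were made and sequenced by the authors, 1 per mouse. Per the labels, the submitters' processing notes name bcl2fastq 2.20, Trimmomatic 0.36, HISAT2 and the build GRCm38.p6; the counting tool, its strand setting and the handling of duplicate reads are not given in the sources used here, so reads shared by paralogs, overlapping and antisense genes are uncertain. The authors deposited whole-number counts for 55487 Ensembl genes without normalization, and 55227 of these identifiers matched GENCODE M21. Groups were taken from the labels.

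From these counts, low genes were dropped with filterByExpr in edgeR 4.0.16 (R 4.3.3), and the rest scaled by TMM and tested with its quasi-likelihood method (two-sided, Benjamini-Hochberg over 18899 genes, called at 0.05) in 1 fit of 12 libraries with 4 group means. DESeq2 1.42.0, limma-voom with quality weights (limma 3.58.1), other filters and scaling, a replicate block and the omission of each library were alternatives. The procedure was tested on simulated data. Totals were 61636889 to 119502062 counts in the KO libraries, which covers counting error only. No pair of libraries agreed within counting noise.

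Named genes were Cpeb2 and Prdm16, the 12 higher and 12 lower genes with the smallest p among those at 1 CPM or more with separate groups, members of the 37 gene lists by p, level and separation within their list, and genes called by an alternative tool. Genes named to account for a count of 5 or fewer were chosen after their values were seen. The comparison, the members and the lists were chosen with earlier results of these data known, so a list's direction is a description. Promoter windows came from RefSeq (GRCm38.p6).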

Additional observations from a re-analysis of the deposited data

How the results depend on the processing

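The number of genes called changed with both the tool and the threshold. In the KO, DESeq2 called 19 genes higher and 247 lower, the newer quasi-likelihood method (chosen after seeing the data) 9 lower, and the thresholds of the study 406 in all, while limma-voom with quality weights per library put 609 genes higher at p under 0.05. In the WT the same steps gave 18 and 134 (DESeq2), 1 lower and 615 higher at p under 0.05 (limma-voom), and 275 (thresholds of the study). For the interaction DESeq2 called 1 gene higher, and at p under 0.05 there were 494 higher and 501 lower without a filter on low counts, and 567 and 522 by limma-voom with these weights. A fit of the 2 KO groups alone put 166 of 17696 genes higher and 776 lower at p under 0.05, with 0 called. The cause was not tested.

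When each library was left out in turn, the KO contrast called 0 to 1 genes higher and 0 to 2 lower, with 230 to 483 genes higher and 652 to 1268 lower at p under 0.05; without mouse 57 there were 483 higher and 1268 lower, without mouse 69 406 and 652, and the fewest higher were without mouse 64 of WT + AAV-PRDM16. In the WT, 0 to 1 genes were called in each direction, with 233 to 672 higher and 688 to 1141 lower at p under 0.05. The interaction called 0 to 1 in each direction, with 242 to 461 higher and 254 to 532 lower. The replicate numbers of the labels, which are not mouse numbers, do not pair the KO groups: deviations of same-numbered replicates correlated at −0.08, 0.15 and 0.15, and with a replicate block 242 genes were higher and 887 lower at p under 0.05, with 0 called. Mice 64 and 65, numbers used in both genotypes, correlated at 0.0070 and −0.049. The legacy quasi-likelihood method is the default of the edgeR version used, so that alternative repeats the values of the report.

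Of the genes named, 4 small differences changed sign with the tool or the removal of the length and GC trend: Ndufs1 at −0.025, Atp5b at −0.034 and Lep at −0.014 by limma-voom with weights, and Cidea at −0.0071 without the trend. Leaving out single mice moved Fasn from −1.12 to 0.16, Thy1 from −1.11 to 0.048, Ndufs1 from −0.091 to 0.15, Ucp1 from −0.37 to 0.088, Cidea from −0.028 to 0.080, Atp5b from −0.012 to 0.14 and Lep from −0.57 to 0.77; all of them missed p under 0.05 in the report. Median log2 fold changes of the 10 immune lists stayed below 0 in every alternative run, and genes without a read in the AAV-PRDM16 group, set to their bound, left these medians as they were. With 3 libraries a group, and 1 of them far from the others in immune transcripts, the size of the immune difference is set less firmly than its direction.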

Other observations

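Untreated iBAT of the same study was sequenced as a separate cohort with its own count table and scaling. Its mice were labelled male and 21 to 25 weeks old. Per the study, they were kept without food for some hours before collection. They give a range for immune lists without any virus, as values set beside each other and not compared by a test. The T cell sum ran from 4.98 to 21.5 CPM in 5 WT libraries (median 8.10) and from 11.1 to 26.9 CPM in 5 KO libraries (median 18.2). The interferon-inducible GTPase sum ran from 159 to 269 CPM in the untreated WT (median 187) and from 111 to 263 CPM in the untreated KO (median 153). MHC class II ran from 89.4 to 489 CPM in the WT (median 108) and from 195 to 565 CPM in the KO (median 402). Macrophage and myeloid markers ran from 70.5 to 549 CPM in the WT (median 99.9) and from 106 to 752 CPM in the KO (median 174). Muscle transcripts ran from 91.1 to 11433 CPM over these KO libraries, far beyond the AAV cohort. Of the 10 untreated libraries, 6 had under 2 CPM of Y-linked transcripts although their labels say male, against 0 of the 6 AAV libraries of the KO.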
